A study of Saccharomyces cerevisiae with 2 samples.

Results

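The 1 kb stretches of the nuclear genome of budding yeast, Saccharomyces cerevisiae, that held relatively more mononucleosomal DNA in phosphate starvation than in high phosphate are described here. The bins were chosen by their tag counts: a bin was called enriched when it held at least 20 sequenced tags over both libraries and, after scaling to the nuclear tag totals, its log2 ratio (starvation over high phosphate) reached 1. Of 11560 bins with enough tags, 747 met this rule (6.46%), and 1020 bins (8.82%) met the mirror rule, log2 of −1 or less, and are called depleted. The counts and ratios of the enriched bins are therefore a description, and nothing is read from their share.

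The study compared 2 cultures of 1 strain, which carried the alleles PHO4-MYC::TRP1 and CBF1-3HA::LEU2, so both factors were epitope-tagged in both groups. Log-phase cells of both groups were first kept in medium without phosphate for 3 hours, and then for 80 minutes in 0 mM phosphate (starvation) or in 10 mM phosphate (high phosphate). The high phosphate cells had therefore been starved and refed. The medium is named PNB in some labels and YNB in others, and sonication appears in a short label but in none of the protocols. Chromatin was cut with micrococcal nuclease, fragments of mononucleosome size were cut from a gel, and no antibody was used. With a single library for each phosphate level, no test between the groups could be made. Effects of phosphate and of the individual culture or library cannot be told apart.

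A nucleosome is a stretch of DNA wrapped around a histone octamer, and micrococcal nuclease digests the linker between neighbouring nucleosomes. The density of tags in a stretch of DNA thus depends on how often it is wrapped, on how readily the nuclease releases it and on how many copies of the DNA the cells hold. In yeast, phosphate starvation moves the transcription factor Pho4 into the nucleus, where it binds CACGTG motifs and activates genes for phosphate uptake and scavenging, and nucleosomes over the promoter of the acid phosphatase gene PHO5 are removed. Cbf1 recognises the same core motif. The coordinates are those of the sacCer1 genome release, and genes and sequences in the enriched bins were not analysed here because the gene table at hand is for another assembly.

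The starvation library held 1001229 nuclear tags and the high phosphate library 2598022, or 83.2 and 216 tags per kb. Neither file lists a position and strand more than once, so dense stretches are counted only up to the number of their positions. Intervals below are 95% exact conditional binomial (Clopper-Pearson) intervals, which cover counting error only.

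The enriched bins had a high tag density in starvation, while their median density in high phosphate was slightly below the median bin. They held 10 to 402 starvation tags with a median of 190, which is 2.57 times the median bin of that library (74 tags). In high phosphate they held 12 to 363 tags with a median of 207, or 0.92 of the median bin of 225 tags. Starvation tags exceeded the median bin of their library in 722 of the 747 enriched bins, and high phosphate tags fell below theirs in 474 (63.5%). Among all tested bins the same shares were 49.1% and 49.5%. The enriched bins together took 14.3% of nuclear starvation tags and 5.93% of nuclear high phosphate tags. The depleted bins had a median of 38 starvation tags, 0.51 of the median bin, and a median of 226 high phosphate tags, against 225 in the median bin. Density varied more in starvation over all tested bins, with the middle 50% from 0.72 to 1.46 of the median bin, against 0.86 to 1.15 in high phosphate. Choosing bins by their ratio therefore picks bins that are far from the starvation median. Counting error is relatively larger at 74 tags in the median bin than at 225, and the spreads were not compared at equal depth.

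**Figure D1:**
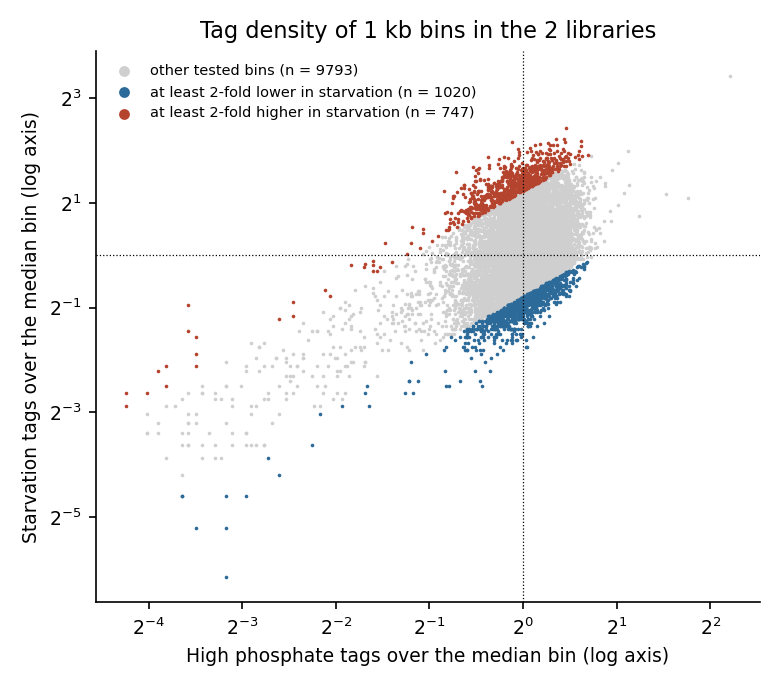
Each point is a 1 kb bin, with its tags over the median bin of the library in high phosphate (x, log axis) and in starvation (y, log axis); red marks the 747 enriched bins, blue the 1020 depleted bins and grey the other 9793. Most red points lie above the dotted median line of starvation and around that of high phosphate, and the few at the lower left hold few tags in both libraries.

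Most enriched bins lay close to the threshold. The median log2 ratio was 1.22, which is 2.34-fold, and the middle 50% of bins ran from 1.10 to 1.37. A log2 ratio below 1.5 was found in 655 bins (87.7%), one from 1.5 to 2 in 88 (11.8%), and one of 2 or more in 4. The bins next to the threshold differed little across it. On chromosome 10 the bin from 121001 to 122000 (124 starvation and 161 high phosphate tags, log2 ratio 1.0003) was just inside. On chromosome 15 the bin from 217001 to 218000 (181 and 235 tags, 0.9999) was just outside. Counting error alone gave a bin an interval with a median width of 0.58 on the log2 scale. The lower bound lay above 0 in 744 enriched bins and at 1 or more in 268. Such bounds were found in 23.8% and 2.32% of all tested bins, and the rule itself fixes that the latter are all enriched bins. With the median 10 kb bin set to a log2 ratio of 0, all ratios rose by 0.062. The counts then became 880 higher and 784 lower bins, and higher bins made up 52.9% of both together in place of 42.3%.

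The 3 bins whose interval reached below 0 held few tags. They began at 535001 on chromosome 4 (13 and 16 tags), at 542001 on chromosome 8 (12 and 14) and at 220001 on chromosome 12 (10 and 12). In all, 16 enriched bins held under 100 tags over both libraries, and 8 of these adjoined a bin below the 20-tag minimum. One of the 16 had the highest ratio of all. On chromosome 16 from 856001 to 857000 there were 38 starvation and 19 high phosphate tags, with a log2 ratio of 2.36 and an interval of 1.55 to 3.25. How many positions of these bins can be placed uniquely was not measured.

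Enriched bins were found on all 16 nuclear chromosomes, and their share was highest on 2 chromosomes whose overall ratio was also high. Chromosome 1, the shortest, had 29 among 199 tested bins (14.6%), and chromosome 3 had 31 of 305 (10.2%). Chromosome 2 had the lowest share, 34 of 795 (4.28%), and chromosome 4, the longest, had 71 of 1464 (4.85%). Chromosomes 1 and 3 as a whole had log2 ratios of 0.21 and 0.17 over their tested bins, and chromosomes 2 and 4 had −0.04 and −0.08. These ratios include the tags of the enriched bins, so more enriched bins raise the ratio of a chromosome in part by construction. When each chromosome was scaled to its own tags, an alternative chosen after seeing the data, 733 bins passed and the shares ranged from 5.03% on chromosome 2 to 7.82% on chromosome 10. Chromosome 1 then had 15 enriched bins (7.54%) and chromosome 3 had 18 (5.9%). Such scaling lowers the ratios of all bins of a chromosome whose overall ratio is above 0. The sizes of the ratios varied little between chromosomes, with median log2 ratios of the enriched bins from 1.16 on chromosome 14 to 1.27 on chromosomes 2 and 8.

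**Figure D2:**
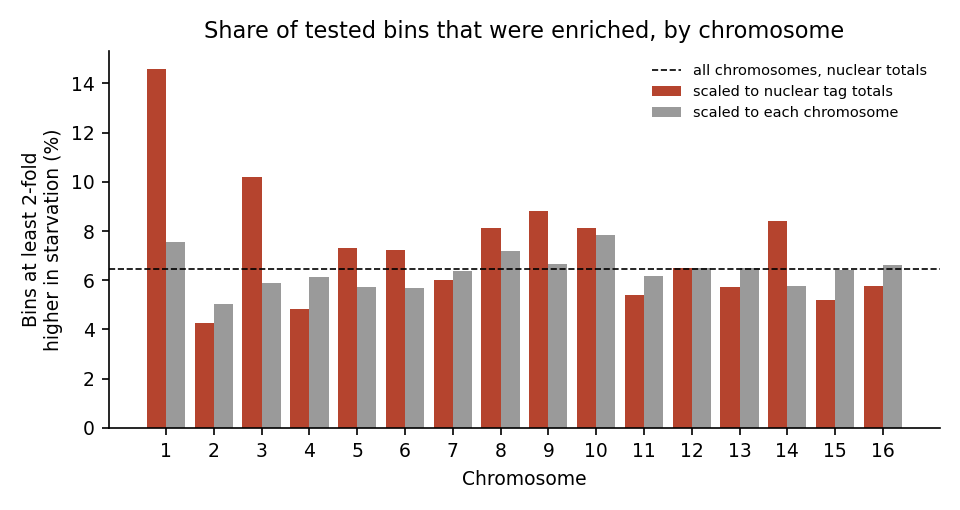
Bars give the percentage of tested 1 kb bins that were enriched on each chromosome, with both libraries scaled to their nuclear totals (red) or to the tags of each chromosome (grey); the dashed line is the 6.46% of all bins. Chromosomes 1 and 3 stand highest in red at 14.6% and 10.2%, and at 7.54% and 5.9% in grey.

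Along the chromosomes, enriched bins were rare among the tested bins next to the ends and most frequent at 50 to 100 kb from them. Many bins next to the ends were below the 20-tag minimum and were not tested. Distances were counted from the outermost bins of each chromosome. Within 10 kb of an end there were 2 enriched bins of 188 tested (1.06%), and at 10 to 20 kb there were 8 of 255 (3.14%). Of those 2, the bin on chromosome 1 from 222001 held only 20 tags in each library. The share was 7.42% at 20 to 50 kb, 10.1% (158 of 1559) at 50 to 100 kb, 7.31% at 100 to 200 kb and 5.24% (306 of 5839) beyond. The class beyond 200 kb leaves out the shortest chromosomes, which had the higher shares. Depleted bins showed less of this pattern, with shares between 7.45% and 9.15% in the same classes.

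Enriched bins occurred both singly and in runs. Of the 747, 378 (50.6%) stood alone, and 369 (49.4%) adjoined another enriched bin, in 89 runs of 2, 44 runs of 3, 6 runs of 4 and 6 longer runs. Among depleted bins 274 of 1020 (26.9%) lay in runs of 2 or more. Their threshold lies nearer the median of all tested bins and they held fewer starvation tags, so these shares are not directly comparable. The tags of the bins around an enriched bin did not enter its own call, but some of those bins were themselves chosen by the rule, so medians are given with and without them. The adjoining bins (n = 1479) had a median log2 ratio of 0.64, with an SD of 0.22 over the medians of the 16 chromosomes, where all tested bins had −0.22. Of the adjoining bins 76% were above 0, against 39.5% of all bins, 30.3% were themselves enriched, against 6.46%, and 2.16% were depleted, against 8.82%. At 2 kb the median was 0.24, at 3 kb −0.05, and at 4 kb −0.19. Without enriched bins among the neighbours the medians at 1 to 4 kb were 0.31, 0.04, −0.15 and −0.27. Leaving them out lowers a median by construction, and at 50 kb the value without them was −0.28, about the level at 4 kb. With enriched neighbours included, on 16 of 16 chromosomes the median at 1 and at 2 kb lay above that of all bins of the chromosome, on 15 at 3 kb and on 6 at 4 kb.

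Around enriched bins the starvation density was raised, while the high phosphate density was near its median. With enriched neighbours included, at 1 kb the median starvation density was 1.76 times the median bin, at 2 kb 1.36 times and at 4 kb 1.03 times. The high phosphate density was 0.97, 0.99 and 1.02 times its median bin at the same distances. Fragments that span a bin border could contribute to the value at 1 kb. With the 100 bp that face the enriched bin left out, the median log2 ratio of adjoining bins was 0.62. Around depleted bins the median log2 ratios were −0.46 at 1 kb and −0.30 at 2 kb, against −0.22 in all tested bins. The sets are not mirror images, since the thresholds lie unequally far from that median. Depleted bins also held fewer starvation tags (median 38 against 190) and had wider counting intervals (median width 1.04 against 0.58). The reach around the sets can therefore not be compared directly. The bins beside enriched bins that stood alone had a median log2 ratio of 0.30. Of 368 such bins with both adjoining bins tested, 159 (43.2%) had both above 0, 162 had 1 above 0 and 47 (12.8%) had none.

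**Figure D3:**
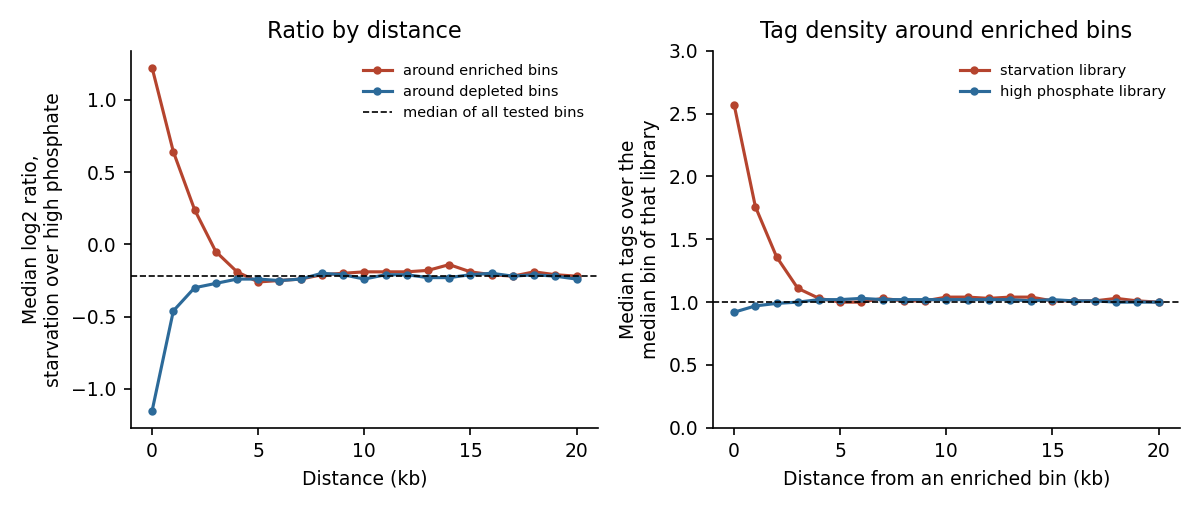
Left, the median log2 ratio of starvation over high phosphate by distance from an enriched (red) or depleted (blue) bin in kb, with the median of all tested bins dashed. Neighbours that were themselves called are included. Right, the median tag density around enriched bins over the median bin in each library. The red ratio falls from 1.22 at 0 kb to 0.64 at 1 kb and −0.19 at 4 kb, while the high phosphate density stays between 0.92 and 1.03.

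With both libraries scaled to nuclear totals, the longest runs gave the stretches with the most extended excess. Of the 6 runs of 5 or more bins, 3 lay on chromosome 3, which as a whole had a log2 ratio of 0.17. With each chromosome scaled to its own tags, bins of these 3 runs at 1.16 or less fell below the threshold. Each of the 3 runs was then broken up. The run of 7 bins on chromosome 3 from 47001 to 54000 held 1459 starvation and 1567 high phosphate tags, and its bins had log2 ratios from 1.13 to 1.42. Only 4 bins separated it from the run of 6 bins from 58001 to 64000, which held 1290 and 1480 tags and had a log2 ratio of 1.18 (interval 1.07 to 1.29). The bins between them had log2 ratios of 0.32, 0.32, −0.87 and 0.60. In the run of 5 bins from 224001 to 229000 both libraries held 1035 tags, a log2 ratio of 1.38, and the excess tapered over the adjoining bins (0.77 to the left and 0.34 to the right).

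The run on chromosome 8 from 188001 to 193000 had sharp borders and an uneven interior. Its starvation tags by bin were 243, 197, 332, 212 and 198, and its high phosphate tags 255, 252, 207, 210 and 237. The adjoining bins held 60 and 59 starvation tags, with log2 ratios of −0.41 and −0.36, so the density changed several-fold from one bin to the next on both sides. High phosphate held 208 and 198 tags in those adjoining bins and showed no such step. The remaining runs lay on chromosome 1 from 57001 to 63000 (1421 and 1606 tags, log2 ratio 1.20) and on chromosome 10 from 289001 to 295000 (1310 and 1375 tags, 1.31). On chromosome 10 the right neighbour had a log2 ratio of 0.80 and the left one 0.25. Chromosome 1 as a whole had a log2 ratio of 0.21. With its own tags as the scale, only the bins at 1.28 and 1.45 of its run passed. In the run on chromosome 8 (0.08 as a whole) the bin at 1.02 then fell below the threshold, and on chromosome 10 (0.01) none did.

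Inside the enriched bins the excess was spread over most of the kilobase. Of the 10 windows of 100 bp in a bin, a median of 8 had a higher scaled density in starvation (middle 50% of bins, 7 to 9), against 2 of 10 in the other tested bins. All 10 windows were higher in 81 enriched bins, and 5 or fewer in 53. The fullest window held a median of 23.6% of the starvation tags of an enriched bin. When the window with the largest excess was left out, 440 bins (58.9%) still had a log2 ratio of 1 or more, and the median was 1.06. Plus-strand and minus-strand tags, the opposite ends of the fragments, gave median log2 ratios of 1.24 and 1.25. Both strands were above 0 in 744 bins and at 1 or more in 517 (69.2%). These values use the same tags as the rule and show only how the excess was distributed.

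On each chromosome the enriched bin with the highest lower bound of its interval was taken as its leading bin. The 16 leading bins held 174 to 332 starvation tags (median 261.5) and 125 to 254 high phosphate tags (median 181), with log2 ratios of 1.67 to 2.08. The highest ratio among them was on chromosome 16 from 75001 to 76000, with 224 and 137 tags, and the next on chromosome 8 from 190001 to 191000, with 332 and 207. Of the 16, 12 adjoined another enriched bin, and 10 had both neighbours above 0. In 5 of them all 10 windows were higher in starvation, and in the others 7 to 9 were.

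Some leading bins had a high density in starvation alone, and others were also sparse in high phosphate. The bin on chromosome 13 from 773001 to 774000 held 322 starvation tags, 4.35 times the median bin, and 254 high phosphate tags, 1.13 times. The bin on chromosome 15 from 202001 to 203000 held 296 starvation tags and 238 high phosphate tags, the latter 1.06 times the median bin. On chromosome 14 from 217001 to 218000 there were 174 and 125 tags, 2.35 and 0.56 times. That bin stood apart from its surroundings, with log2 ratios of −0.81 to the left and −0.49 to the right against 1.85 (1.51 to 2.20) in the bin.

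The bin on chromosome 3 from 138001 to 139000 held 291 and 219 tags and also ended abruptly, with 0.57 to the left and −0.99 to the right against 1.78. By contrast, the bin on chromosome 9 from 268001 to 269000 (258 and 210 tags, 1.67) lay between enriched neighbours of 1.62 and 1.52. The bin on chromosome 6 from 95001 to 96000 (211 and 157 tags, 1.80) lay between neighbours of 1.06 and 1.57. The leading bins thus included isolated stretches as well as the summits of wider ones.

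**Figure D4:**
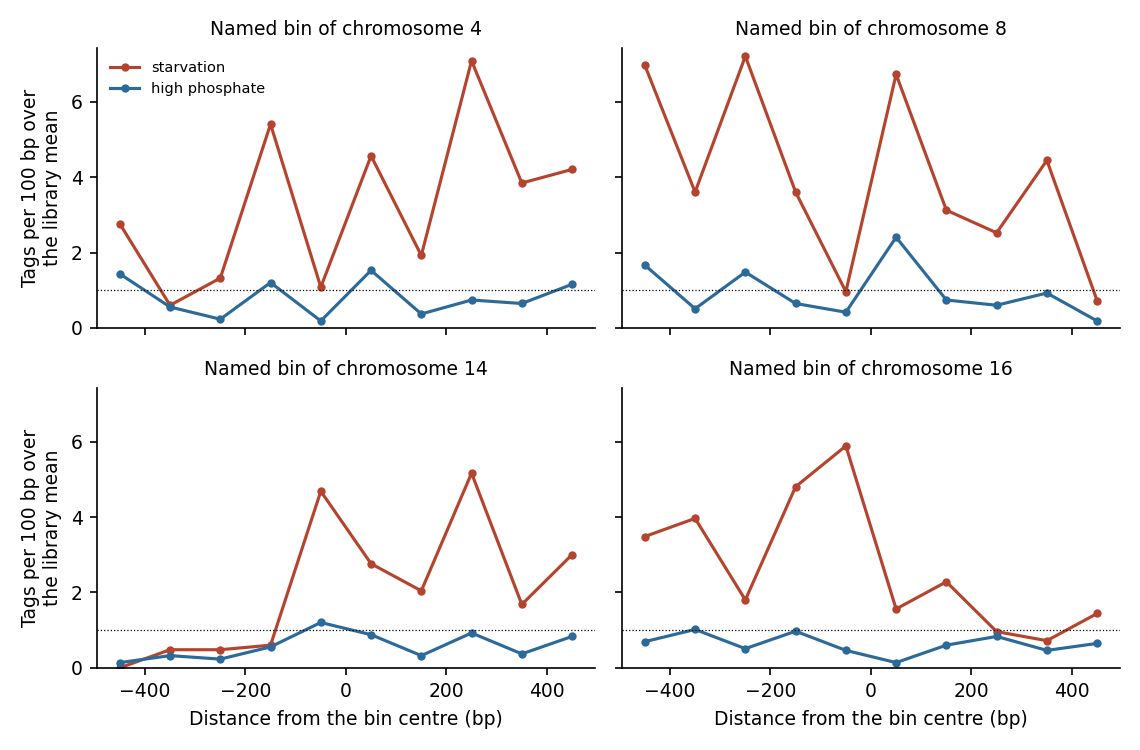
Tags per 100 bp over the library mean (y) in the leading bins of chromosomes 4, 8, 14 and 16, by distance from the bin centre in bp (x), for starvation (red) and high phosphate (blue); the dotted line is the library mean. On chromosome 14 most starvation tags lie in the right part of the bin, where a window holds up to 43, although 9 of 10 windows were higher in starvation, and on chromosomes 4 and 8 it covers 10 of 10 windows.

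Nucleosome positions within the enriched bins were often alike in both libraries although the densities differed. Dyads, the midpoints of nucleosomes, were taken as local maxima of the tag density. In the leading bins 47 of 72 starvation dyads (65.3%) lay within 20 bp of a high phosphate dyad. On chromosome 8 from 190001 the starvation dyads lay 41, 252, 523, 695 and 860 bp from the first base of the bin, and the high phosphate dyads 37, 242, 529, 687 and 856 bp from it. All 5 were matched there. On chromosome 1 from 129001 to 130000 (302 and 216 tags) 6 of 6 were matched, and on chromosome 15 from 202001 5 of 5. On chromosome 6 from 95001 none was, with starvation dyads at 662 and 815 bp and high phosphate dyads at 473, 630 and 838 bp.

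Over the enriched bins, the profiles of the libraries correlated slightly more than in other bins with many tags, while the share of matched dyads was no higher. Each bin was thinned to 100 tags in each library, which 715 enriched bins and 2742 others allowed. The smoothed profiles of the libraries correlated within a bin with a median r of 0.59 in enriched bins (middle 50%, 0.44 to 0.73) and 0.54 in the others (0.37 to 0.67), and the median was higher in enriched bins on 14 of 16 chromosomes. Of starvation dyads 63.7% were matched within 20 bp in enriched bins and 67% in the others. Within chromosomes the share was lower in enriched bins on 10 of 16, with a mean difference of −2.65 percentage points and an SD of 6.04. The others here are bins with many starvation tags, since 8071 were left out for having under 100 in a library. Positions along a bin share the smoothing, so the correlations are descriptions.

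The fragment length and the spacing of nucleosomes in the enriched bins were close to those of the other tested bins in both libraries. Fragments of mononucleosome size had been cut from the gel, so a length in that range was set in advance for all bins. Lengths were searched from 80 to 250 bp and spacings from 120 to 220 bp. Fragment length, read from the offset between plus-strand and minus-strand tags, came to 155 bp in starvation for enriched bins and for the other tested bins alike. In high phosphate it was 145 bp in enriched bins (SD over chromosomes 5.64) and 142 bp in the others (SD 1.49). It was longer in enriched bins on 10 of 16 chromosomes and shorter on 5, with a mean difference of 1.75 bp and an SD of 5.80. In depleted bins the offset was 151 bp (SD 6.56) in starvation and 132 bp (SD 9.85) in high phosphate. In the enriched bins the distances between neighbouring nucleosomes first peaked at 169 bp in the starvation library and at 172 bp in the other. In the other tested bins it lay at 169 bp in both libraries.

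The contrast between nucleosome and linker was weaker in enriched bins than in the other tested bins in starvation, and stronger in high phosphate. It was measured as the number of plus-minus tag pairs at the strand offset of the library over the mean across 1 nucleosome repeat around it. This fragment peak is a ratio of pair counts summed over the bins of a set, so bins with more tags weigh more in it. In starvation it was 1.47 in enriched bins (SD over chromosomes 0.05) and 1.61 in the other tested bins (SD 0.03), and it was lower in enriched bins on 16 of 16 chromosomes. In high phosphate it was 1.34 (SD 0.04) against 1.28 (SD 0.01), and it was higher in enriched bins on 14 of 16. The mean difference over chromosomes, enriched minus other bins, was −0.13 with an SD of 0.04 in starvation and 0.06 with an SD of 0.05 in high phosphate. The other bins include the depleted ones. Against bins between the thresholds alone it was −0.13 in starvation (lower on 16 of 16) and 0.05 in high phosphate (higher on 13 of 16).

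The peak of the distances between neighbouring nucleosomes behaved alike, with smaller differences. It stood at 1.26 in enriched bins and 1.31 in the others in starvation, lower on 14 of 16 chromosomes, and at 1.21 and 1.19 in high phosphate, higher on 13. Against bins between the thresholds it was lower on 14 in starvation. In high phosphate it was higher on 11, with a mean difference of 0.02 and an SD of 0.04. Depleted bins had a fragment peak of 1.45 (SD 0.10) in starvation and 1.15 (SD 0.03) in high phosphate. In high phosphate the enriched bins exceeded the depleted ones on 16 of 16 chromosomes. In starvation enriched and depleted bins could not be ordered, with enriched bins higher on 8 and lower on 8. Chromosomes of 1 library are not replicates, so these counts are no test between conditions. The share of position-strand combinations that were filled differed in the same comparisons. Its median was 9.50% in enriched and 3.55% in other bins in starvation, and 10.35% and 11.30% in high phosphate. Its part in these contrasts was not tested.

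**Figure D5:**
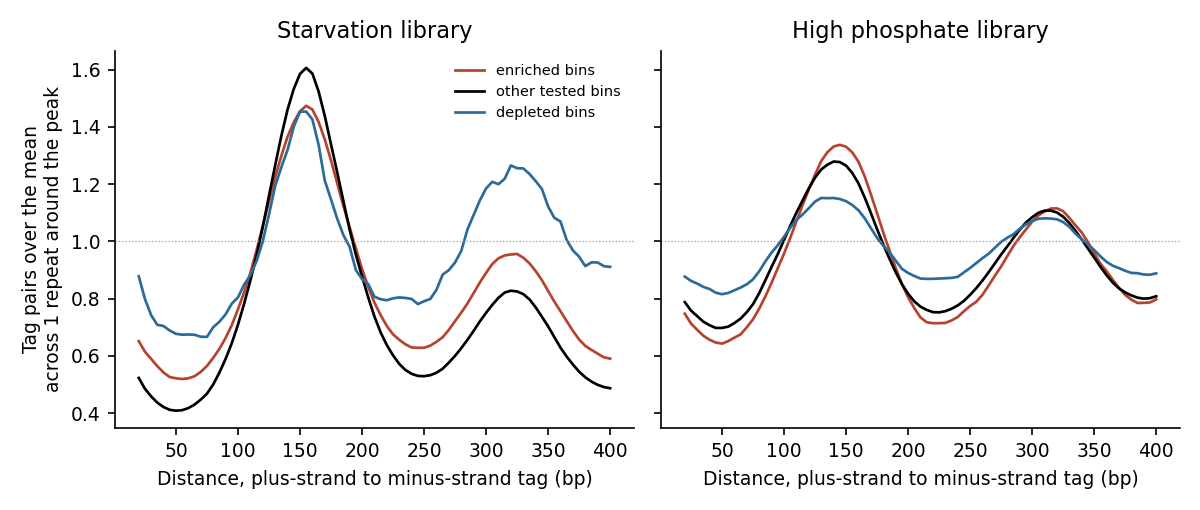
Tag pairs by the distance from a plus-strand to a minus-strand tag (x, bp) over their mean across 1 repeat around the fragment peak (y), in enriched (red), depleted (blue) and other tested bins (black). At the peak the starvation curves reach 1.47, 1.45 and 1.61, and the high phosphate curves 1.34, 1.15 and 1.28 at the offset of all bins.

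In high phosphate, sparse stretches within a bin were more frequent in enriched than in depleted bins. They differed less between enriched bins and bins between the thresholds. The measure uses high phosphate tags that also entered the rule, so it is a description. Positions that cannot be placed uniquely would also count as sparse, and they were not measured. With each bin thinned to 100 tags of 1 library, the emptiest 150 bp of a bin in high phosphate held at most 2 tags in 33.1% of 718 enriched bins. The share was 28.9% in 9571 bins between the thresholds and 13% in 1001 depleted bins. Within chromosomes the enriched bins exceeded the depleted bins on 16 of 16, by a mean of 21.6 percentage points (SD 7.5). They exceeded the bins between the thresholds on 12 of 16, by a mean of 4.53 points (SD 6.45). Depleted bins held at most 68 starvation tags, so none could be thinned to 100 in that library. Of the bins between the thresholds 7051 were left out in starvation, so the 2 libraries were compared over unlike sets. In starvation the share was 74.6% in 716 enriched bins and 77.4% in 2742 bins between the thresholds. It was lower in enriched bins on 11 of 16 chromosomes, with a mean difference of −3.42 points and an SD of 9.52.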

How the data were processed

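The deposited files give 1 row per uniquely placed tag, with its position and strand on sacCer1, per the labels' protocols. The aligner is not given in the sources used here. Tags were moved 73 bp towards the fragment middle and counted in 1 kb bins from position 1. A pseudocount of 0.5 was added to both tag counts before the log2 ratio was scaled to nuclear totals. Of 12041 bins, 481 held under 20 tags and were left out. Fragment length was the lag with most plus-minus pairs after an 11 bp running mean. The first tag of a pair lay in the bins described, the second anywhere. Dyads were maxima, above the bin mean, of the density smoothed with an SD of 20 bp, with neighbours kept 120 bp or more apart. Leading bins and runs of 5 or more bins were named by rule.

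The bins, the rules and the measures were chosen with earlier results of these data known. The alternatives tried were other scalings, tag shifts, bin borders and sizes, tag minimums, pseudocounts, a stricter threshold, thinning, single strands and a correction for filled positions. The correction turns the filled share of 10 bp windows on a strand into the Poisson mean behind it. Functions were tested on simulated data. Python 3.11.15, numpy 2.4.6, pandas 2.3.3, scipy 1.17.1 and matplotlib 3.10.9 were used.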

Additional observations from a re-analysis of the deposited data

How the results depend on the processing

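No paired analysis was possible because there was a single library at each phosphate level, which also leaves no replicate to drop. The number of enriched bins depended on the bin size and the threshold. It was 2124 in bins of 500 bp (9.26% of those tested) and 242 in bins of 2 kb (4.14%). At a log2 threshold of 1.5 it was 92 (0.796%). Fewer and larger bins, and a stricter threshold, lower such a count by construction. The share of tested bins changed with the bin size as well. Under the other 13 alternatives the count ranged from 731 to 894 (6.32% to 7.72% of tested bins), against 747 (6.46%). It was 894 after the correction for filled positions, 771 after thinning of the deeper library, and 831 and 817 with plus-strand or minus-strand tags alone. With a pseudocount of 5 there were 761 higher and 565 lower bins, 57.4% higher. That pseudocount was added to unscaled tags of libraries of unlike depth. It moves log2 ratios towards a value above 0, most in bins with few tags, so this setting favours starvation. With 2 kb bins 55.9% were higher. Adding the pseudocount of 0.5 to scaled tags, chosen after seeing the data, gave 731. Of the 747 bins, 461 (61.7%) passed under each of 12 alternatives that keep the bin borders and the threshold. The median log2 ratio of adjoining bins was 0.62 to 0.70. The strand offsets and peak heights in enriched bins moved by no more than their SD over chromosomes under the alternatives run. The log2 ratios of the 16 leading bins stayed at 1.53 or more under 6 alternatives. Of these 96 values, 6 left the counting interval of the bin.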

Other observations

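Some long stretches held no enriched bin, and they were picked out after their values had been seen. The longest lay on chromosome 4 from 1012001 to 1183000, with 164 tested bins, the next on chromosome 11 from 173001 to 326000, with 153, and the next on chromosome 16 from 527001 to 640000, with 113. The median distance between successive enriched bins of a chromosome was 6 kb. At 11 kb from an enriched bin 10% of tested bins were enriched, the highest share at 4 to 20 kb. The share was 6.03% at 5 kb, 5.84% at 20 kb and 6.46% over all tested bins. On 7 of 16 chromosomes the median log2 ratio at 11 kb lay above that of all bins of the chromosome.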
